A study of Homo sapiens with 16 samples.

Results

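HT-1080 is a human fibrosarcoma cell line in which erastin, a blocker of cystine import, sets off ferroptosis, a death driven by iron and oxidised lipids. Cells that overexpressed WDR76 (oeWDR76) were set directly against cells in which DCAF8 had been depleted with siRNA (siDCAF8), both without erastin. The comparison rested on 4 of the 16 RNA-seq libraries of the series, 2 for oeWDR76 and 2 for siDCAF8. The matching libraries of cells given 10 µM erastin for 24 h, 2 oeWDR76/Erastin and 2 siDCAF8/Erastin, were read beside it. Control siRNA (siNS) libraries were not used as a reference, so a difference between oeWDR76 and siDCAF8 can come from either group, and the 2 sources cannot be told apart here. The labels name neither the vector nor the siRNA sequences, and none of the 8 groups of the series is labelled as an empty-vector control. One group overexpressed WDR76 and the other received siRNA. Effects of these means of delivery therefore cannot be told apart from those of WDR76 or DCAF8. The labels also leave unsaid whether both libraries of a group are separate cultures, so p-values measure only the spread between libraries of a group. That spread was estimated from all 16 libraries of the series, siNS included.

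WDR76 and DCAF8 are WD40-repeat proteins that dock on DDB1, the adaptor of the CUL4 ubiquitin ligase, where such proteins pick the substrate to be marked for the proteasome. The title of the study names LSH, a chromatin remodeler encoded by HELLS and needed for normal DNA methylation, as a protein whose stability this ligase controls. The comparison therefore asks how the transcriptome of cells with WDR76 raised differs from that of cells with DCAF8 lowered.

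Expression was deposited as FPKM, a fragment count scaled to transcript length and library size, and was compared as log2(FPKM + 1). Of 17552 genes with values, 11260 that averaged 1 FPKM or more across all 16 libraries were tested with limma, and a gene was called at a Benjamini-Hochberg adjusted p under 0.05. Between oeWDR76 and siDCAF8, 8220 genes (73.0%) were called, 4632 higher (41.1%) and 3588 lower (31.9%) in oeWDR76. An absolute log2 difference of at least 1, a 2-fold change on that scale, was passed by 938 of the called genes (8.33%), 577 higher (5.12%) and 361 lower (3.21%), a split that came to 466 higher and 441 lower after quantile normalization. The median log2 difference over all genes tested was 0.07. Libraries of a group lay close together, with a median SD over genes of 0.05 in oeWDR76 and 0.06 in siDCAF8 on the log2 scale. A share of called members is read below against these percentages, and the size of a difference is given beside every call.

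The 2 groups also differed in a property of whole libraries. FPKM summed over all genes came to 498951 and 500547 in the oeWDR76 libraries, against 436290 and 441632 in the siDCAF8 libraries. Genes rich in G and C and genes with short transcripts were higher in both oeWDR76 libraries than in both siDCAF8 libraries. Among the 20% of genes with the highest GC content 64.5% were called higher and 11.7% lower, and among the 20% with the lowest 21.9% were called higher and 48.9% lower. The 20% of genes with the shortest transcripts had 66.9% called higher and 9.78% lower, and the 20% with the longest 14.4% higher and 62.4% lower. GC content and log2 length together held 20.5% of the variance of the log2 differences across 11086 genes, which are not independent replicates. The same tilt was present in both erastin-treated oeWDR76 libraries, and its part in any single result was not tested. Every comparison was therefore repeated with the trend on GC content and length taken out of each library (called trend-removed below), where 7739 of 11086 genes were called (69.8%), 3642 higher (32.9%) and 4097 lower (37.0%), and 581 passed 2-fold (5.24%), 330 higher (2.98%) and 251 lower (2.26%). Trend-removed values stand beside some named genes and gene lists, and a value without one can shift as well. For example, the log2 difference of AURKB went from 1.40 to 0.94 and that of PTPN14 from -1.68 to -1.17. The LSH and DNA methylation list went from 6 called higher and 5 lower to 9 and 5, and the hypoxia median from 0.40 to 0.51. Trend-removed values cover only genes with a GC content and length, which a few list members lack.

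**Figure D1:**
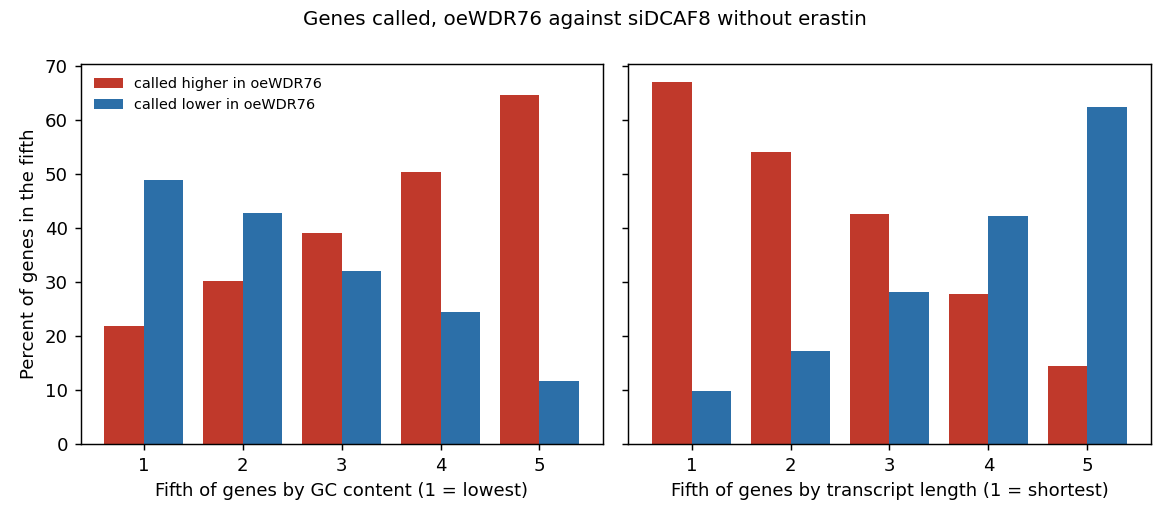
Share of genes called higher (red) or lower (blue) in oeWDR76 than in siDCAF8, in 5 equal bins of the tested genes by GC content (left) and by transcript length (right). The share called higher is 21.9% in the bin lowest in GC and 64.5% in the highest, and 66.9% in the bin of shortest transcripts and 14.4% in that of the longest.

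The targeted genes followed the labels. WDR76, on chromosome 15, had 268 and 267 FPKM in oeWDR76 cells, against 5.00 and 5.31 FPKM in siDCAF8 cells. Its log2 difference was 5.45 (SE 0.11, adjusted p = 1.32e-16), or 43.6-fold on the FPKM + 1 scale. DCAF8, on chromosome 1, had 32.8 and 30.9 FPKM in oeWDR76 cells, against 11.8 and 12.2 FPKM in siDCAF8 cells, a log2 difference of 1.34 (SE 0.081, adjusted p = 2.85e-10). DCAF8 mRNA was thus still measured in the depleted cells, and WDR76 mRNA was present at a low level in cells without the construct. HELLS, on chromosome 10, which encodes LSH, had 10.5 and 11.2 FPKM in oeWDR76 cells, against 6.83 and 7.45 FPKM in siDCAF8 cells and was called higher in oeWDR76 (log2 difference 0.54, SE 0.071, adjusted p = 3.1e-06). These are mRNA levels and say nothing about protein stability. No library of any of these pairs reached the range of the other group. Most genes tested shared that trait: of 11260, 5419 had both oeWDR76 libraries above both siDCAF8 libraries, and 4322 had both below.

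Other parts of the ligase moved in both directions, as did the genes tested as a whole (41.1% called higher and 31.9% lower). Of 30 genes of the CUL4 ligase, its substrate receptors and its regulators, all tested, 10 were called higher and 13 lower, with a median log2 difference of -0.04 (-0.12 trend-removed). WDR76 and DCAF8 themselves are on this list and are its 2 members past 2-fold. DDB1, the adaptor that holds the receptors, fell to 59.3 and 56.7 FPKM in oeWDR76 cells, against 111 and 103 FPKM in siDCAF8 cells (log2 difference -0.87, adjusted p = 4.12e-10). The scaffold CUL4A fell as well, with 26.00 and 25.9 FPKM in oeWDR76 cells, against 47.5 and 47.04 FPKM in siDCAF8 cells (log2 difference -0.84). COPS3, a subunit of the COP9 signalosome that strips NEDD8 from cullins, was higher, with 145 and 148 FPKM in oeWDR76 cells, against 71.7 and 76.6 FPKM in siDCAF8 cells (log2 difference 0.97). DCAF15, another substrate receptor, had 23.98 and 24.1 FPKM in oeWDR76 cells, against 13.8 and 12.6 FPKM in siDCAF8 cells, a log2 difference of 0.82 that became 0.40 trend-removed.

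LSH partners and the DNA methylation machinery showed small differences, and no member passed 2-fold. Of 18 genes listed, HELLS included, 16 were tested, 6 were called higher and 5 lower, and the median log2 difference was 0.13. Both counts lay near the shares of all genes tested (41.1% higher and 31.9% lower). CDCA7L, a relative of the LSH activator CDCA7, was higher (log2 difference 0.63), as was the methyl-CpG reader MBD2 (0.59). CDCA7 itself was called lower (-0.23, -0.29 trend-removed). TET3, an enzyme that oxidises methylcytosine, was lower (-0.81, -0.43 trend-removed), and so was TDG, the glycosylase that removes the oxidised base (-0.63). DNMT1, the maintenance methyltransferase, had 52.6 and 54.8 FPKM in oeWDR76 cells, against 53.4 and 48.8 FPKM in siDCAF8 cells; it was not called, and trend-removed it was called at 0.13.

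The largest rises were in interferon-stimulated genes. Type I and type III interferons signal through JAK kinases to a transcription factor complex that binds interferon-stimulated response elements (ISREs) and switches on antiviral genes. Of 41 such genes listed and 36 tested, 35 were called higher in oeWDR76, 32 of them past 2-fold, none was called lower, and the median log2 difference was 3.15 (3.21 trend-removed), against 0.07 over all genes. The filter averaged all 16 libraries, and members such as MX2 and USP18 passed it on the values of their oeWDR76 libraries. Such members could hardly be called lower, so the count of 35 is not read as support. Summed over the 41 genes, tested or not, FPKM came to 6856 and 6839 in the oeWDR76 libraries, against 746 and 727 in the siDCAF8 libraries. TRIM25, a ligase that acts on the RNA sensor RIG-I, was the single tested member not called, with 33.6 and 34.4 FPKM in oeWDR76 cells, against 34.1 and 30.00 FPKM in siDCAF8 cells (0.24 trend-removed, where it was called). After WDR76 itself is set aside, the 14 largest rises of the whole comparison were all members of this list.

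The promoters of 4 of these genes are printed to show the ISRE core that they share. Each runs from 160 bases to 1 base before the RefSeq transcription start, on the sense strand in GRCh38.p14, and capitals mark GAAANNGAAA or its reverse complement TTTCNNTTTC, which can overlap each other. The stretches lie at chr1:27672193-27672352 on the minus strand for IFI6, chr1:1013337-1013496 on the plus strand for ISG15, chr10:89392463-89392622 on the plus strand for IFIT1 and chr11:313880-314039 on the plus strand for IFITM1.
IFI6: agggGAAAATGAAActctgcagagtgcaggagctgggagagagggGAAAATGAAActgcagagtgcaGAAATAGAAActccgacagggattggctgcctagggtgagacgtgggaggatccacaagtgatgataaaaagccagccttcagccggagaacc
ISG15: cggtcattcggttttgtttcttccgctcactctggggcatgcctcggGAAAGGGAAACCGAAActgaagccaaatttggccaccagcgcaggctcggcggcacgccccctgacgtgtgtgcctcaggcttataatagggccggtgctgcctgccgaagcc
IFIT1: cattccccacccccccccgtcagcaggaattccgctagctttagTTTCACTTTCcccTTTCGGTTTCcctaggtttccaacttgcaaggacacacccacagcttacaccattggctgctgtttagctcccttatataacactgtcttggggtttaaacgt
IFITM1: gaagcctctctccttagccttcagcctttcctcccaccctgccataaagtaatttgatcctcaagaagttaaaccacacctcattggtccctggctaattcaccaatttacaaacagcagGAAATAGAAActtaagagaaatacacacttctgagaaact

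IFI6 held 3 whole copies in this stretch, ISG15 held 2 overlapping copies, IFIT1 held 2 on the opposite strand and IFITM1 held 1. Over windows from 250 bases before to 50 after each start, the core was found in 23 of 37 windows (62.2%) of the 29 tested interferon-stimulated genes with a window in the table, against 1255 of 35116 windows (3.57%) over all genes. Over the genes tested, 394 of 13610 windows (2.89%) held the core. Among genes called past 2-fold higher and outside the interferon list, 43 of 644 windows (6.68%) held it, and among genes called past 2-fold lower 10 of 454 (2.20%). A match describes the sequence and does not show that a factor binds there.

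The levels behind these rises spanned a wide range. IFI6, an inhibitor of apoptosis and of viral replication at the endoplasmic reticulum, had 1207 and 1232 FPKM in oeWDR76 cells, against 8.34 and 8.04 FPKM in siDCAF8 cells (log2 difference 7.05, SE 0.086, adjusted p = 5.69e-19). ISG15, a ubiquitin-like modifier, had 1054 and 1018 FPKM in oeWDR76 cells, against 11.8 and 12.8 FPKM in siDCAF8 cells (log2 difference 6.29, SE 0.088). Both genes were therefore among the abundant transcripts of oeWDR76 cells and low in siDCAF8 cells. The dynamin-like antiviral GTPases rose together: MX1 had 165 and 169 FPKM in oeWDR76 cells, against 6.45 and 6.56 FPKM in siDCAF8 cells (log2 difference 4.48), and MX2 had 50.1 and 49.2 FPKM in oeWDR76 cells, against 0.04 and 0.02 FPKM in siDCAF8 cells (log2 difference 5.62, or 8.58 with a pseudocount of 0.1, since it was near 0 in siDCAF8 cells).

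Genes that sense or block foreign RNA rose by similar amounts. IFIT1, which binds RNA that lacks a methylated cap, had 151 and 145 FPKM in oeWDR76 cells, against 3.51 and 3.95 FPKM in siDCAF8 cells (log2 difference 4.98). Its relatives IFIT2 and IFIT3 had log2 differences of 4.76 and 5.34. OAS2, which makes the second messenger that activates RNase L, had 132 and 120.3 FPKM in oeWDR76 cells, against 5.15 and 4.95 FPKM in siDCAF8 cells (log2 difference 4.39), and the related OASL had 146 and 136 FPKM in oeWDR76 cells, against 2.12 and 2.61 FPKM in siDCAF8 cells (5.40). RSAD2, which makes a chain-terminating nucleotide, was lower in level throughout, with 24.8 and 22.2 FPKM in oeWDR76 cells, against 0.40 and 0.32 FPKM in siDCAF8 cells (4.17). In none of these genes did the libraries of the 2 groups overlap, which was also so for most genes tested.

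Membrane and feedback genes of the same programme were also raised. IFITM1, which restricts viral entry, had 437 and 395 FPKM in oeWDR76 cells, against 12.2 and 15.4 FPKM in siDCAF8 cells (log2 difference 4.82), and its close relatives may share reads with it. USP18, a protease that removes ISG15 and dampens the interferon receptor, had 34.4 and 31.96 FPKM in oeWDR76 cells, against 0.26 and 0.23 FPKM in siDCAF8 cells (4.78). IFI44, a cytoplasmic antiviral protein, had 76.8 and 73.1 FPKM in oeWDR76 cells, against 0.37 and 0.57 FPKM in siDCAF8 cells (5.69). All of these genes were near 0 or low in siDCAF8 cells. IFI27, a relative of IFI6, had 83.8 and 74.03 FPKM in oeWDR76 cells, against 0.69 and 0.91 FPKM in siDCAF8 cells (5.47); the deposited table places it on an alternate contig, so reads may be shared with its copy on the main chromosome. IRF7, a factor that amplifies interferon production, ran the other way at a very low level and was under the filter, with 0 and 0.03 FPKM in oeWDR76 cells, against 0.68 and 0.62 FPKM in siDCAF8 cells.

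**Figure D2:**
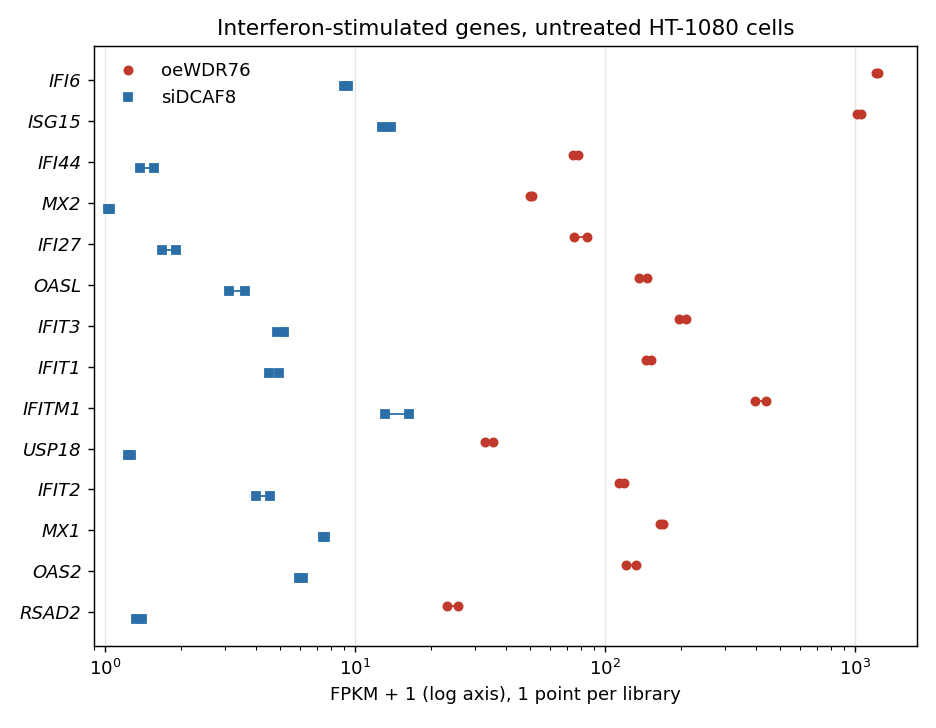
FPKM + 1 on a log axis for the 14 largest rises other than WDR76, 1 point per library, oeWDR76 (red circles) above siDCAF8 (blue squares) for each gene. The oeWDR76 points lie to the right of the siDCAF8 points in every gene, from IFI6 at 1207 and 1232 FPKM against 8.34 and 8.04 to RSAD2 at 24.8 and 22.2 FPKM against 0.40 and 0.32.

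Ligands, receptors, kinases and sensors of the pathway were looked up after their values were seen. Their FPKM values are given here without p-values, although all those named in this paragraph but IFNB1 were among the genes tested. Of the ligands, IFNB1 had 3.71 and 2.90 FPKM in oeWDR76 cells, against 0 and 0 FPKM in siDCAF8 cells, and IFNL1 had 7.94 and 5.04 FPKM in oeWDR76 cells, against 0 and 0.07 FPKM in siDCAF8 cells. Both ligand mRNAs were thus detected at a few FPKM in oeWDR76 libraries and listed at or near 0 in siDCAF8 libraries. The receptor chain IFNAR1 had 7.13 and 6.80 FPKM in oeWDR76 cells, against 7.23 and 7.17 FPKM in siDCAF8 cells, and IFNAR2 had 9.55 and 7.17 against 6.47 and 6.86. The kinase JAK1 had 25.7 and 24.7 FPKM in oeWDR76 cells, against 43.2 and 43.4 FPKM in siDCAF8 cells. TYK2, another kinase, ran the other way with 24.75 and 25.62 FPKM in oeWDR76 cells, against 18.45 and 18.16 FPKM in siDCAF8 cells. Among DNA sensors, CGAS had 4.02 and 4.38 FPKM in oeWDR76 cells, against 4.31 and 4.65 FPKM in siDCAF8 cells and its partner STING1 had 48.9 and 45.5 FPKM in oeWDR76 cells, against 39.8 and 34.3 FPKM in siDCAF8 cells, so that neither pair was far apart. AIM2, a DNA sensor of the inflammasome, stood apart with 11.1 and 10.4 FPKM in oeWDR76 cells, against 0.28 and 0.20 FPKM in siDCAF8 cells, and TREX1, an exonuclease that clears cytosolic DNA, had 17.4 and 17.2 FPKM in oeWDR76 cells, against 3.34 and 3.33 FPKM in siDCAF8 cells.

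Antigen presentation through MHC class I was higher in oeWDR76. Of 16 genes, all tested, 13 were called higher and 2 lower, with a median log2 difference of 0.94. The trend-removed median was 0.68 over the 13 members with a GC content, which leaves out both members called lower. PSMB9, a catalytic subunit of the immunoproteasome, had 37.95 and 39.1 FPKM in oeWDR76 cells, against 7.02 and 8.06 FPKM in siDCAF8 cells (log2 difference 2.21, SE 0.074). TAP1, which pumps peptides into the endoplasmic reticulum, had 61.8 and 55.8 FPKM in oeWDR76 cells, against 20.8 and 19.2 FPKM in siDCAF8 cells (1.51). The heavy chains HLA-B and HLA-C had log2 differences of 1.43 and 1.50 (0.96 and 1.01 trend-removed), and since their sequences are close to each other, reads may be split between them. PSMB8, another immunoproteasome subunit, had 90.9 and 83.9 FPKM in oeWDR76 cells, against 44.4 and 39.4 FPKM in siDCAF8 cells (1.04, 0.60 trend-removed). The 2 members called lower were ERAP1 and ERAP2, which trim peptides to fit the groove, at log2 differences of -0.80 and -0.25.

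Chemokines and NF-kB feedback genes rose with them. Of 30 genes listed, 28 had values and 19 were tested; 16 were called higher, 1 lower and 2 not called, with a median log2 difference of 1.44 (0.98 trend-removed, 16 higher and 2 lower). CXCL10 and CXCL11, chemokines that attract T cells and are themselves induced by interferon, were nearly silent in siDCAF8 cells. CXCL10 had 9.06 and 8.85 FPKM in oeWDR76 cells, against 0 and 0.05 FPKM in siDCAF8 cells. CXCL11 had 11.7 and 9.21 FPKM in oeWDR76 cells and was listed at 0 in both siDCAF8 libraries. Both chemokines passed the filter on the values of their oeWDR76 libraries, with and without erastin. Such members could hardly be called lower, so the count of 16 higher is not read as support. CCL5, a further T cell chemokine, had 136 and 114 FPKM in oeWDR76 cells, against 16.4 and 15.4 FPKM in siDCAF8 cells (log2 difference 2.89). NFKBIA and TNFAIP3 switch NF-kB off again. NFKBIA had 93.5 and 94.6 FPKM in oeWDR76 cells, against 15.4 and 16.4 FPKM in siDCAF8 cells (2.49), and TNFAIP3 had 12.8 and 12.8 FPKM in oeWDR76 cells, against 1.83 and 1.72 FPKM in siDCAF8 cells (2.31). CSF1, the macrophage growth factor, was the member called lower (-0.26, -0.43 after quantile normalization), and was not called when siDCAF8 replicate 1 was left out.

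Replication genes were shifted upward by modest amounts. Of 38 tested genes for S phase entry and replication, 33 were called higher and none lower, with a median log2 difference of 0.54 (0.46 trend-removed, 31 higher and none lower). TK1, thymidine kinase, had 79.2 and 83.02 FPKM in oeWDR76 cells, against 30.1 and 30.7 FPKM in siDCAF8 cells (log2 difference 1.39, 0.89 trend-removed). CDT1, which loads the replicative helicase, had 36.1 and 36.9 FPKM in oeWDR76 cells, against 14.8 and 14.9 FPKM in siDCAF8 cells (1.24), and MCM7, a subunit of that helicase, had 114 and 119 FPKM in oeWDR76 cells, against 68.05 and 68.9 FPKM in siDCAF8 cells (0.76). POLA2 and CDC45 had log2 differences of 1.08 and 1.18. CDT1 is itself a classical substrate of the CUL4 ligase as a protein, which these mRNA values do not measure.

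Mitotic genes were less uniform. Of 33 tested, 23 were called higher and 6 lower, with a median log2 difference of 0.38 (22 higher and 3 lower trend-removed). AURKB, the kinase that corrects chromosome attachment, had 122 and 129.8 FPKM in oeWDR76 cells, against 48.3 and 45.9 FPKM in siDCAF8 cells (log2 difference 1.40). CENPA, the centromeric histone, and PTTG1, the securin, had log2 differences of 1.05 and 1.14. UBE2C and CDC20, partners of the anaphase-promoting complex, had log2 differences of 0.93 and 1.04 (0.52 and 0.62 trend-removed). TOP2A and CENPF, which encode large proteins, were the members lowest in oeWDR76, at -0.80 and -0.80 (-0.51 and -0.31 trend-removed).

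Among iron genes the transferrin receptor stood out. TFRC, through which cells take up transferrin-bound iron, had 19.04 and 25.3 FPKM in oeWDR76 cells, against 289 and 328 FPKM in siDCAF8 cells (log2 difference -3.75, SE 0.11, adjusted p = 3.24e-14), the largest fall of the comparison. Its 2 oeWDR76 libraries lay far below both siDCAF8 libraries. Of all 23 tested iron genes, TFRC included, 9 were called higher and 8 lower, near the shares of all genes tested (41.1% higher and 31.9% lower). Their median log2 difference was 0.03, which turned negative under median-ratio scaling (-0.02) and quantile normalization (-0.08) and was 0.0053 trend-removed. IREB2, an iron regulatory protein that binds iron-responsive elements such as those of the TFRC and ferritin mRNAs, was lower, with 6.79 and 7.13 FPKM in oeWDR76 cells, against 16.9 and 18.7 FPKM in siDCAF8 cells (-1.24). The ferritin heavy chain FTH1 was higher, with 1028 and 977 FPKM in oeWDR76 cells, against 506 and 468 FPKM in siDCAF8 cells (1.04, 0.67 trend-removed, 0.64 after quantile normalization), and the light chain FTL had 1893 and 1871 FPKM in oeWDR76 cells, against 1298 and 1266 FPKM in siDCAF8 cells (0.55, 0.04 and not called trend-removed). SLC25A28, which carries iron into mitochondria, and STEAP1, a metalloreductase relative, were both higher, at log2 differences of 1.47 and 1.47. SLC39A14, an importer of iron not bound to transferrin, was lower (-0.68).

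Genes that promote or restrain ferroptosis moved in both directions, at shares close to those of all genes tested (41.1% higher and 31.9% lower). Of 29 listed and 26 tested, 12 were called higher and 8 lower, with a median log2 difference of -0.03 (-0.06 trend-removed, 9 higher and 12 lower). ACSL4, which loads membranes with the polyunsaturated fatty acids that ferroptosis oxidises, had 18.5 and 17.1 FPKM in oeWDR76 cells, against 41.4 and 43.6 FPKM in siDCAF8 cells (log2 difference -1.21, adjusted p = 1.57e-11). AIFM2, which encodes the ferroptosis suppressor FSP1, had 13.6 and 13.6 FPKM in oeWDR76 cells, against 5.95 and 5.75 FPKM in siDCAF8 cells (1.09, adjusted p = 4.18e-10). MBOAT1, a lysophospholipid acyltransferase, and ALOXE3, an epidermal lipoxygenase, were also higher, at 1.42 and 1.58. TMEM164, an acyltransferase, was lower (-0.86), and so was SCD, which makes monounsaturated fatty acids, with 137 and 146 FPKM in oeWDR76 cells, against 304 and 284 FPKM in siDCAF8 cells (-1.05). GPX4, the glutathione peroxidase that removes lipid peroxides, had 188 and 187 FPKM in oeWDR76 cells, against 144 and 140.5 FPKM in siDCAF8 cells, a log2 difference of 0.39 that reversed to -0.23 trend-removed (0.14 after quantile normalization).

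Antioxidant genes controlled by NRF2 were more often higher. Of 28 tested, 18 were called higher and 6 lower, with a median log2 difference of 0.52 (0.21 trend-removed, 13 higher and 7 lower). The aldo-keto reductases AKR1C1 and AKR1C3 rose strongly. AKR1C3 had 21.7 and 20.2 FPKM in oeWDR76 cells, against 1.53 and 2.29 FPKM in siDCAF8 cells (log2 difference 2.93), and AKR1C1 had 9.06 and 8.55 FPKM in oeWDR76 cells, against 0.43 and 0.57 FPKM in siDCAF8 cells (2.71). The AKR1C genes are close paralogs, so their separate values are uncertain. BLVRB, a biliverdin reductase, had 74.5 and 71.8 FPKM in oeWDR76 cells, against 24.8 and 26.2 FPKM in siDCAF8 cells (1.48, 0.88 trend-removed), and the autophagy receptor SQSTM1 had 341 and 349 FPKM in oeWDR76 cells, against 170.0 and 172 FPKM in siDCAF8 cells (1.01). SLC7A11, the cystine importer that erastin blocks and a target of both NRF2 and ATF4, ran the other way with 2.45 and 2.76 FPKM in oeWDR76 cells, against 6.78 and 5.22 FPKM in siDCAF8 cells (-0.95, -0.50 trend-removed). GCLC and GCLM, the subunits of the enzyme that starts glutathione synthesis, were also lower, at -0.37 and -0.33 (-0.31 and -0.13 trend-removed, where GCLM was not called).

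Stress responses to amino acid shortage and to misfolded proteins were higher in part. Of 36 tested genes of the ATF4 response, 19 were called higher and 8 lower, with a median log2 difference of 0.27 that shrank to 0.0036 trend-removed (11 higher and 10 lower). Among the members that rose were the stress regulators ATF3, with 38.1 and 34.9 FPKM in oeWDR76 cells, against 8.07 and 6.78 FPKM in siDCAF8 cells (log2 difference 2.16), and DDIT3, which encodes CHOP, with 111 and 104 FPKM in oeWDR76 cells, against 38.6 and 32.8 FPKM in siDCAF8 cells (1.57). PHGDH, which opens serine synthesis, had 148 and 149.6 FPKM in oeWDR76 cells, against 50.97 and 45.1 FPKM in siDCAF8 cells (1.61), and SLC3A2, the heavy chain shared by several amino acid transporters, had 169 and 176 FPKM in oeWDR76 cells, against 73.7 and 67.9 FPKM in siDCAF8 cells (1.27). SLC38A2, a glutamine transporter, ran the other way with 42.3 and 41.3 FPKM in oeWDR76 cells, against 106 and 116 FPKM in siDCAF8 cells (-1.39). Members of the same response thus differed in direction within the same libraries.

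In the unfolded protein response, 23 genes were tested, of which 14 were higher and 4 lower, with a median log2 difference of 0.40. MANF, a secreted chaperone-associated factor, had 196 and 224 FPKM in oeWDR76 cells, against 68.5 and 67.2 FPKM in siDCAF8 cells (log2 difference 1.61), and HSP90B1, the HSP90 of the endoplasmic reticulum, had 849 and 876 FPKM in oeWDR76 cells, against 396 and 434 FPKM in siDCAF8 cells (1.06, 0.63 after quantile normalization). PDIA6, a disulfide isomerase, was higher as well (0.86). ERN1, the stress sensor IRE1, had 1.24 and 1.25 FPKM in oeWDR76 cells, against 7.29 and 6.22 FPKM in siDCAF8 cells (-1.78), and SEL1L, an adaptor of ER-associated degradation, was also lower (-1.01, -0.60 trend-removed). Of 19 tested heat shock genes, 12 were called higher and 2 lower, with a median of 0.26 (0.14 trend-removed). HSPB8, a small heat shock protein, had a log2 difference of 1.18, and the near-identical pair HSPA1A and HSPA1B had 2.19 and 1.59, values that cannot be assigned to each copy with certainty. DNAJB6, a co-chaperone, was lower (-0.61).

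**Figure D3:**
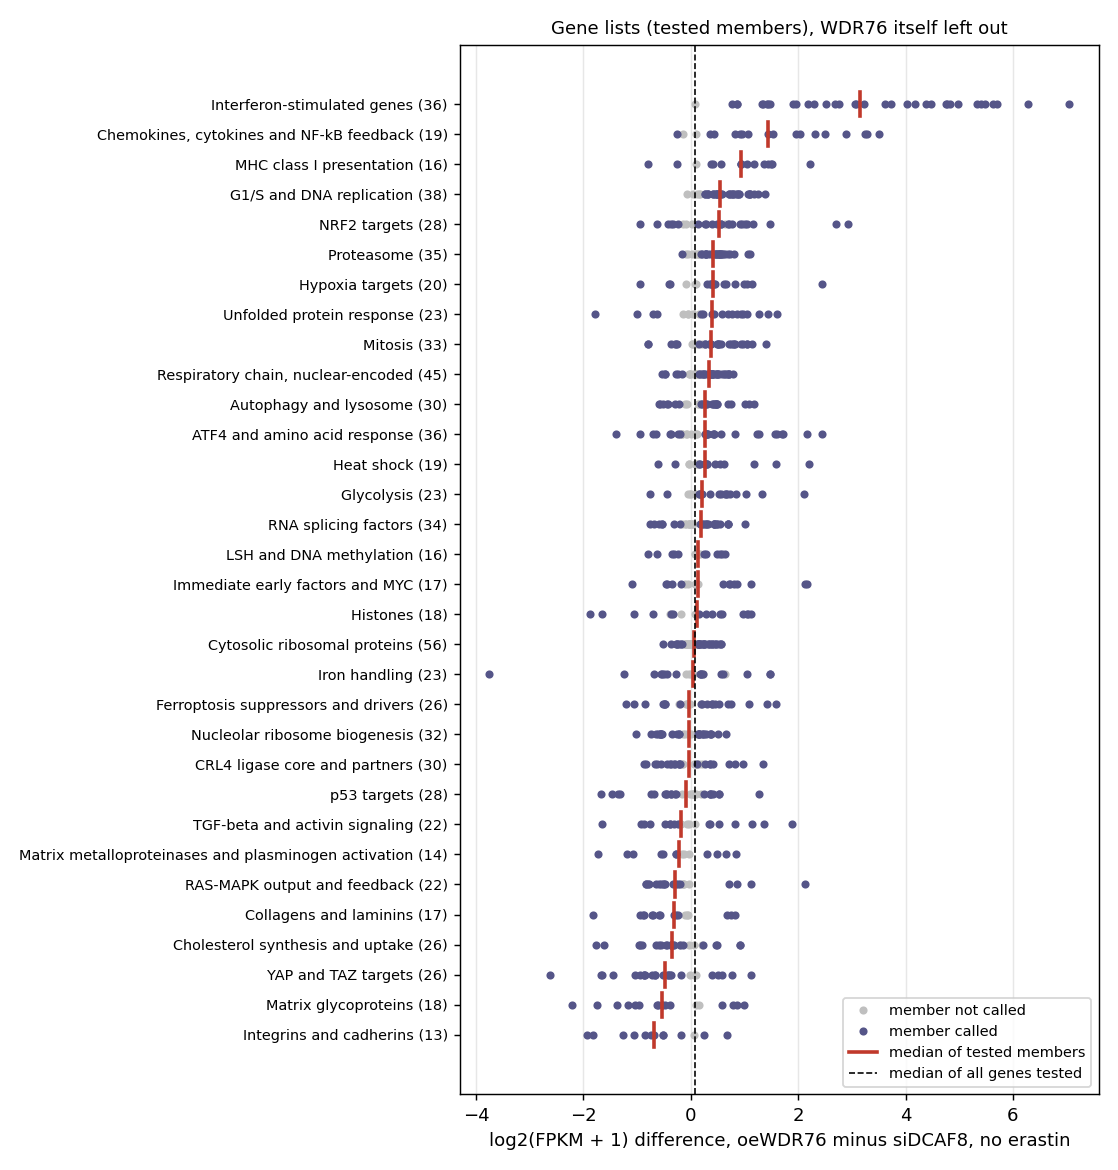
Log2(FPKM + 1) differences, oeWDR76 minus siDCAF8, of the tested members of 32 gene lists, with the number of tested members in brackets. Dark points are called members, grey points are not called, red ticks are list medians and the dashed line is the median of all genes tested (0.07); interferon-stimulated genes stand at the top with a median of 3.15, and integrins and cadherins at the bottom with -0.68.

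Cholesterol synthesis was lower. Of the 26 genes tested, 17 were called lower and 5 higher, with a median log2 difference of -0.35 (-0.53 trend-removed, 4 higher and 20 lower). HMGCS1, an early enzyme of the pathway, had 13.8 and 13.8 FPKM in oeWDR76 cells, against 45.6 and 52.6 FPKM in siDCAF8 cells (log2 difference -1.76, adjusted p = 2.23e-09). SREBF2, the transcription factor that drives the pathway, had 55.7 and 54.3 FPKM in oeWDR76 cells, against 108 and 101 FPKM in siDCAF8 cells (-0.91), and SQLE, squalene epoxidase, was lower too (-0.97). EBP, an isomerase near the end of the pathway, was higher, with 62.4 and 62.7 FPKM in oeWDR76 cells, against 33.8 and 31.97 FPKM in siDCAF8 cells (0.91, 0.56 trend-removed). In each of these genes the libraries of the 2 groups did not overlap, as in most genes tested.

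Glycolysis and hypoxia genes were mostly higher. Of 23 glycolytic genes 15 were called higher and 2 lower, with a median log2 difference of 0.21 (0.14 trend-removed, 13 higher and 7 lower). PFKFB4, which makes an activator of phosphofructokinase, had 14.1 and 11.9 FPKM in oeWDR76 cells, against 2.20 and 2.26 FPKM in siDCAF8 cells (log2 difference 2.11), and the enolase ENO2 had 62.3 and 56.7 FPKM in oeWDR76 cells, against 23.3 and 22.8 FPKM in siDCAF8 cells (1.33). The abundant enzymes ALDOA and GAPDH had log2 differences of 1.03 and 0.56 that shrank to 0.55 and 0.14 trend-removed, and ALDOA had 0.69 after quantile normalization. Of 20 hypoxia targets 14 were called higher and 3 lower, with a median of 0.40. CA9, a surface carbonic anhydrase, had 15.3 and 14.3 FPKM in oeWDR76 cells, against 1.95 and 1.88 FPKM in siDCAF8 cells (2.44), BNIP3, a mitophagy receptor, had 19.5 and 16.5 FPKM in oeWDR76 cells, against 8.32 and 8.09 FPKM in siDCAF8 cells (1.04), and EPAS1, which encodes the oxygen-regulated factor HIF-2α, was lower with 14.3 and 13.3 FPKM in oeWDR76 cells, against 29.4 and 25.6 FPKM in siDCAF8 cells (-0.94).

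Genes of adhesion, matrix and YAP signalling were mostly lower. YAP and TAZ are co-activators that carry signals of cell spreading to TEAD factors. Of 26 tested YAP and TAZ genes, 5 were called higher and 18 lower, with a median log2 difference of -0.48 (-0.56 trend-removed, 3 higher and 19 lower). ANKRD1, a target gene widely used as a read-out, had 51.8 and 51.6 FPKM in oeWDR76 cells, against 329.8 and 318 FPKM in siDCAF8 cells (log2 difference -2.62, SE 0.08, adjusted p = 4.75e-14). YAP1 itself had 24.7 and 25.7 FPKM in oeWDR76 cells, against 46.6 and 47.04 FPKM in siDCAF8 cells (-0.87). MYOF, a membrane repair protein, had 22.9 and 21.8 FPKM in oeWDR76 cells, against 64.5 and 60.8 FPKM in siDCAF8 cells (-1.44), and PTPN14 and TGFB2 were lower at -1.68 and -1.66. The TEAD factors were not uniform: TEAD1 had 11.5 and 11.1 FPKM in oeWDR76 cells, against 21.5 and 20.7 FPKM in siDCAF8 cells (-0.84, -0.98 trend-removed), while TEAD2 was higher with 12.1 and 11.3 FPKM in oeWDR76 cells, against 4.27 and 5.51 FPKM in siDCAF8 cells (1.12, 0.75 trend-removed).

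Matrix genes followed with 12 of 18 tested glycoproteins called lower and 4 higher (median -0.53), and 11 of 17 collagens and laminins lower and 3 higher (median -0.31). FN1, fibronectin, had 123 and 111 FPKM in oeWDR76 cells, against 593 and 506 FPKM in siDCAF8 cells (log2 difference -2.22, SE 0.089, adjusted p = 1.69e-12). EFEMP1, a fibulin, had 65.97 and 63.5 FPKM in oeWDR76 cells, against 168 and 169 FPKM in siDCAF8 cells (-1.37), and COL5A1, a fibrillar collagen chain, had 4.45 and 4.33 FPKM in oeWDR76 cells, against 18.8 and 17.3 FPKM in siDCAF8 cells (-1.82). HSPG2, perlecan, was lower at -1.75, LTBP2, a fibrillin-like matrix protein, at -1.05, and COL4A1, a basement membrane collagen, at -0.70. THBS1, thrombospondin, was low throughout, with 0.41 and 0.31 FPKM in oeWDR76 cells, against 2.20 and 1.95 FPKM in siDCAF8 cells (-1.18, -2.25 with a pseudocount of 0.1). LAMB3, a laminin chain of epithelial basement membranes, ran against its list with 388 and 355 FPKM in oeWDR76 cells, against 226 and 195 FPKM in siDCAF8 cells (0.82).

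Integrins and cadherins had a median of -0.68, the lowest of the lists plotted, with 10 of 13 tested members called lower and 2 higher. Trend-removed the median was -0.34, and the YAP and TAZ, cholesterol and matrix glycoprotein lists were lower at -0.56, -0.53 and -0.42. ITGAV, the alpha chain of several fibronectin and vitronectin receptors, had 10.6 and 9.03 FPKM in oeWDR76 cells, against 39.3 and 41.1 FPKM in siDCAF8 cells (log2 difference -1.94). ITGB1, the beta chain shared by most matrix receptors, had 229.9 and 217 FPKM in oeWDR76 cells, against 385 and 424 FPKM in siDCAF8 cells (-0.85). ITGA6 and ITGA10, further alpha chains, were lower at -1.26 and -1.83, and CDH2, N-cadherin, had 16.2 and 16.2 FPKM in oeWDR76 cells, against 35.8 and 34.2 FPKM in siDCAF8 cells (-1.06). Of 14 tested proteases and inhibitors of matrix breakdown, 4 were called higher and 7 lower (2 higher and 10 lower trend-removed). MMP2, a gelatinase, had 15.99 and 16.7 FPKM in oeWDR76 cells, against 58.1 and 54.9 FPKM in siDCAF8 cells (-1.73), and PLAU, urokinase, was lower (-0.53, -0.82 after quantile normalization). Its receptor PLAUR was higher (0.84, 0.43 trend-removed), and TIMP1 had a log2 difference of 0.49 that was -0.06 and not called trend-removed (0.25 after quantile normalization).

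**Figure D4:**
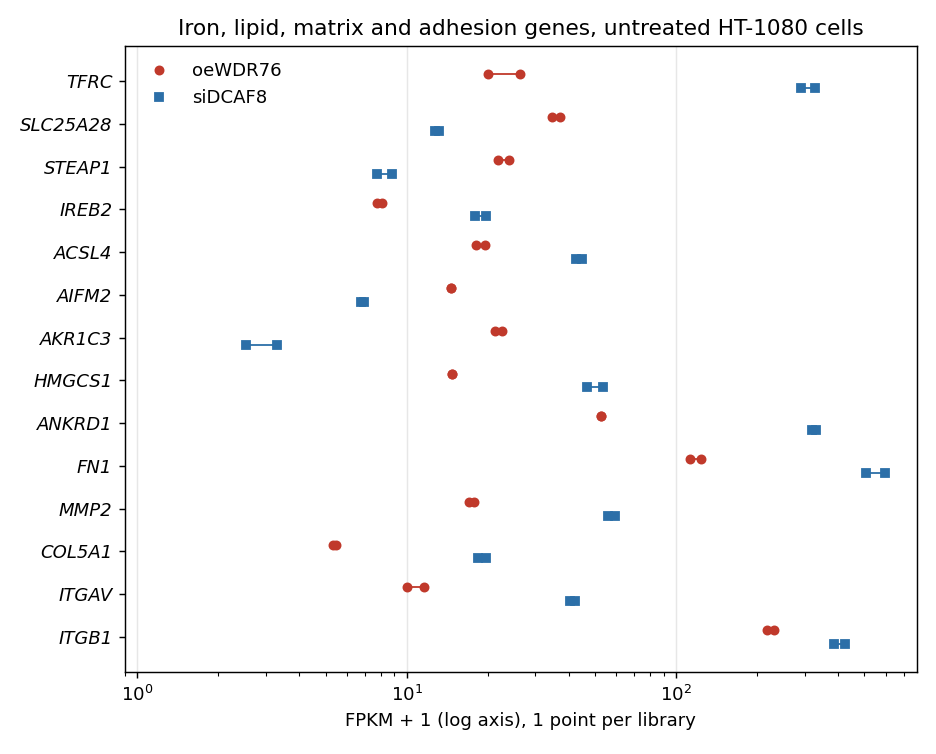
FPKM + 1 on a log axis for 14 genes of iron handling, lipid metabolism, YAP signalling, matrix and adhesion, 1 point per library, oeWDR76 (red circles) above siDCAF8 (blue squares) for each gene. TFRC shows the widest gap, with 19.0 and 25.3 FPKM in oeWDR76 and 289 and 328 FPKM in siDCAF8, and SLC25A28, STEAP1, AIFM2 and AKR1C3 are the 4 genes with oeWDR76 on the right.

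Growth factor signalling genes were mostly lower, with a few strong rises. Of 22 tested genes of RAS-MAPK output and feedback, 4 were called higher and 14 lower, with a median log2 difference of -0.30. EGR1, an immediate early factor, had 11.3 and 10.6 FPKM in oeWDR76 cells, against 2.03 and 1.46 FPKM in siDCAF8 cells (log2 difference 2.13), and FOSL1, an AP-1 subunit, had 309 and 298 FPKM in oeWDR76 cells, against 139.8 and 137 FPKM in siDCAF8 cells (1.13, 0.66 trend-removed). NRAS, the oncogene that carries an activating mutation in HT-1080 cells, was lower with 16.1 and 16.2 FPKM in oeWDR76 cells, against 27.2 and 32.2 FPKM in siDCAF8 cells (-0.83), as were HBEGF, an EGF receptor ligand (-0.79), and the feedback inhibitor SPRY2 (-0.79). Of 17 tested immediate early factors and MYC partners 8 were called higher and 5 lower, with a median of 0.13. These counts were near the shares of all genes tested (41.1% higher and 31.9% lower). The AP-1 subunit JUNB was higher (0.86, 0.35 trend-removed) and FOSL2 was lower (-1.09).

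In the TGF-beta and activin list 7 of 22 tested members were called higher and 9 lower, with a median log2 difference of -0.19 that turned to 0.05 trend-removed. Among all genes tested, 41.1% were called higher and 31.9% lower. TGFB1 had 83.9 and 80.2 FPKM in oeWDR76 cells, against 37.3 and 35.9 FPKM in siDCAF8 cells (log2 difference 1.14), opposite to TGFB2 above. BAMBI, a decoy receptor, had 3.56 and 3.91 FPKM in oeWDR76 cells, against 0.44 and 0.14 FPKM in siDCAF8 cells (1.88, 3.41 with a pseudocount of 0.1), TGFBR3, a co-receptor, was lower (-0.94, -0.62 trend-removed), and so was the feedback inhibitor PMEPA1 (-0.87).

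Of 28 p53 targets, all tested, 8 were called higher and 13 lower, with a median log2 difference of -0.09 (-0.27 trend-removed, 4 higher and 16 lower). BTG2, an antiproliferative factor, had 11.8 and 11.5 FPKM in oeWDR76 cells, against 38.9 and 39.9 FPKM in siDCAF8 cells (log2 difference -1.67), and PLK2, a kinase, had 42.00 and 42.4 FPKM in oeWDR76 cells, against 101 and 113 FPKM in siDCAF8 cells (-1.32). TP53INP1 and ZMAT3 were lower at -1.47 and -1.36 (-0.90 trend-removed for ZMAT3). PMAIP1, which encodes the death-promoting protein NOXA and also responds to interferon and ATF4, ran the other way with 84.2 and 78.3 FPKM in oeWDR76 cells, against 31.9 and 34.5 FPKM in siDCAF8 cells (1.27). Of 18 tested histone genes, 9 were called higher and 6 lower, with a median of 0.11 that turned to -0.02 trend-removed and -0.16 after quantile normalization. Over all genes tested, 41.1% were called higher and 31.9% lower. The variants H2AZ1 and H2AX were higher (1.06 and 0.98, 0.42 trend-removed for H2AX), and the clustered genes H2AC6 and H2BC12, which have close copies, were lower (-1.88 and -1.06, -1.69 trend-removed for H2BC12).

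Housekeeping complexes had small differences. Of 45 nuclear-encoded subunits of the respiratory chain, 31 were called higher and 6 lower with a median log2 difference of 0.34, and trend-removed 11 were higher and 17 lower with a median of -0.02. COX8A, a subunit of cytochrome oxidase, had 483 and 500.1 FPKM in oeWDR76 cells, against 299.6 and 297 FPKM in siDCAF8 cells (0.72, 0.13 trend-removed, 0.42 after quantile normalization). Of 56 cytosolic ribosomal proteins 22 were higher and 8 lower with a median of 0.07, and trend-removed 7 were higher and 42 lower with a median of -0.26. RPLP2, of the ribosomal stalk, had 1835 and 1713 FPKM in oeWDR76 cells, against 1241 and 1165 FPKM in siDCAF8 cells (0.56, -0.03 and not called trend-removed). For these 2 lists the direction therefore depended on the handling of GC content and length.

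Proteasome genes were higher, with 27 of 35 called higher and 1 lower (median 0.41; 19 higher, 10 lower and 0.19 trend-removed). The 2 members past 2-fold were PSME1 and PSME2, subunits of the interferon-inducible PA28 activator, at log2 differences of 1.06 and 1.10 (0.63 and 0.63 trend-removed). PSME1 had 188 and 178 FPKM in oeWDR76 cells, against 90.9 and 83.7 FPKM in siDCAF8 cells, and PSME2 had 221 and 225 FPKM in oeWDR76 cells, against 100.2 and 107 FPKM in siDCAF8 cells. Autophagy and lysosome genes had 19 of 30 called higher and 7 lower (median 0.27; 12 higher, 9 lower and 0.04 trend-removed), among them the protease CTSL (1.08) and MAP1LC3B, a marker of autophagosomes (0.76). Nucleolar ribosome biogenesis genes were evenly split, 13 higher and 13 lower of 32 (5 higher, 18 lower and a median of -0.20 trend-removed, against -0.04), with NOLC1, a nucleolar chaperone, at -0.74. Of 34 splicing factors 18 were called higher and 7 lower (median 0.19, -0.07 after quantile normalization; 16 higher, 10 lower and 0.05 trend-removed), with HNRNPD, which also controls mRNA decay, at 0.53 (0.27 after quantile normalization) and SF3B1, of the U2 particle, at -0.77 (-0.43 trend-removed).

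Several of the largest falls lay outside these groups. CEMIP, which breaks down hyaluronan, had 5.07 and 4.82 FPKM in oeWDR76 cells, against 49.6 and 41.1 FPKM in siDCAF8 cells (log2 difference -2.96). SLC14A1, a urea transporter, had 0.26 and 0.27 FPKM in oeWDR76 cells, against 9.50 and 9.20 FPKM in siDCAF8 cells (-3.03, -4.69 with a pseudocount of 0.1). ROR1, a Wnt receptor, had 1.57 and 1.51 FPKM in oeWDR76 cells, against 12.9 and 14.4 FPKM in siDCAF8 cells (-2.53), and TENM2, a teneurin adhesion protein, had 2.26 and 2.32 FPKM in oeWDR76 cells, against 15.8 and 13.5 FPKM in siDCAF8 cells (-2.25). FLG and HRNR encode repeat-rich proteins of the skin barrier. FLG had 0.32 and 0.33 FPKM in oeWDR76 cells, against 7.73 and 6.93 FPKM in siDCAF8 cells, and HRNR had 0.34 and 0.44 FPKM in oeWDR76 cells, against 7.79 and 7.48 FPKM in siDCAF8 cells. Both were thus low in oeWDR76 cells, and since their repeats are alike, reads may be split between them. ASXL2, a chromatin regulator, had 2.65 and 2.46 FPKM in oeWDR76 cells, against 15.2 and 14.5 FPKM in siDCAF8 cells (-2.16), and SORBS2, a cytoskeletal adaptor, had 0.82 and 0.79 FPKM in oeWDR76 cells, against 6.85 and 6.49 FPKM in siDCAF8 cells (-2.09). KIAA0754, ZBED6, NBPF10 and PALM2AKAP2 ranked among the 15 largest falls too, but overlap a host gene, belong to a family of near-identical copies or are read-through loci, so their values are left out.

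Mesenchymal markers were expressed in both groups. VIM, the mesenchymal intermediate filament, had 2067 and 2062 FPKM in oeWDR76 cells, against 1952 and 1891 FPKM in siDCAF8 cells; it was not called, and trend-removed it was called lower at -0.21. Of 25 genes that define HT-1080 or mesenchymal cells, 23 were tested, 9 were called higher and 11 lower; S100A6, a calcium-binding protein, was higher (1.12, 0.53 trend-removed) and CAV1, caveolin, was lower (-1.06), while THY1 and NT5E were under 1 FPKM in all 4 libraries. Of 17 epithelial markers, 14 had values and 11 of these stayed under 1 FPKM in all 4 libraries, among them EPCAM, while the keratins KRT8 and KRT18 were expressed in both groups. Both keratins were called lower in oeWDR76, KRT8 at -0.29 and KRT18 at -0.56 (-0.73 and -1.06 trend-removed). Of 18 blood cell markers, 15 had values, 7 stayed under 1 FPKM in all 4 libraries, and the globins HBA2 and HBB were at 0. Summed over this list, FPKM came to 318 and 314 in the oeWDR76 libraries, against 156 and 159 in the siDCAF8 libraries, nearly all of it from CD68 and LCP1, which many tumour lines express. CD68, a lysosomal protein, had 161 and 154 FPKM in oeWDR76 cells, against 69.8 and 69.6 FPKM in siDCAF8 cells (log2 difference 1.16), and LCP1, an actin bundler, had 139 and 141 FPKM in oeWDR76 cells, against 74.5 and 76.6 FPKM in siDCAF8 cells (0.88). The panleukocyte marker PTPRC had 1.22 and 1.70 FPKM in oeWDR76 cells, against 1.59 and 0.97 FPKM in siDCAF8 cells; it was not called, and trend-removed it was called at 0.37. Hepatocyte and neural markers were under 1 FPKM in all 4 libraries for 10 of 13 genes with values. In bulk RNA, fewer cells of a kind and less RNA per cell cannot be told apart.

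The same pair of genotypes under erastin shares no library with the untreated pair. In oeWDR76/Erastin against siDCAF8/Erastin, 8719 of 11260 genes were called (77.4%), 4919 higher (43.7%) and 3800 lower (33.7%), and 1454 passed 2-fold (12.9%), 921 higher (8.18%) and 533 lower (4.73%), a split of 678 and 675 after quantile normalization. Trend-removed, 8164 of 11086 genes were called with erastin, 3824 higher and 4340 lower, and 815 passed 2-fold, 462 higher and 353 lower. Of the 8220 genes called without erastin, 7290 were called in the same direction with erastin and 68 in the opposite direction. Of the 938 past 2-fold without erastin, 933 were called in the same direction and 796 were past 2-fold again. Interferon-stimulated genes had a median log2 difference of 3.19 with erastin, with 35 of 36 called higher. IFI6 had 1053 and 1102 FPKM in oeWDR76/Erastin cells, against 5.42 and 6.01 FPKM in siDCAF8/Erastin cells, and TFRC had 20.4 and 26.6 FPKM in oeWDR76/Erastin cells, against 349 and 359 FPKM in siDCAF8/Erastin cells. The ATF4 list differed in direction between the 2 comparisons, with a median of -0.27 and 7 called higher and 20 lower with erastin; the list as a whole was not tested for that change.

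The difference between the 2 comparisons was tested gene by gene, as the erastin difference minus the untreated difference. It was called for 1583 genes (14.1%), 1014 with a higher value under erastin (9.01%) and 569 with a lower value (5.05%), a split that became 820 and 720 under median-ratio scaling and 862 and 742 under quantile normalization. A change of at least 2-fold was reached by 24 genes (0.213%), 7 upward (0.0622%) and 17 downward (0.151%); the split was 4 and 22 trend-removed, and 14 and 17 when oeWDR76 replicate 2 was left out. That count was 51 with a pseudocount of 0.1 and 40 when siDCAF8/Erastin replicate 2 was left out. TUBA1B, an alpha-tubulin with close paralogs, had a log2 difference of 1.80 with erastin and 1.03 (0.68 trend-removed) without, so that the 2 differed by 0.77 (SE 0.07, adjusted p = 1.52e-05). The beta-tubulin TUBB4B gained 0.79 on its untreated value of 0.96 (0.50 trend-removed), CALM3, a calmodulin gene, gained 0.83 on 0.72 (0.37 trend-removed, 0.45 after quantile normalization), and UBE2S, which extends ubiquitin chains for the anaphase-promoting complex, gained 0.89 on 0.99. UPP1, uridine phosphorylase, moved the other way, with 0.82 with erastin and 1.74 without. NT5DC2 was near level without erastin, with 53.1 and 60.8 FPKM in oeWDR76 cells, against 61.7 and 63.7 FPKM in siDCAF8 cells (log2 difference -0.14, adjusted p = 0.047, -0.54 trend-removed, -0.32 after quantile normalization and not called when siDCAF8 replicate 1, siDCAF8 replicate 2 or oeWDR76 replicate 1 was left out, at values between -0.16 and -0.04), and had 55.6 and 57.3 FPKM in oeWDR76/Erastin cells, against 32.5 and 31.03 FPKM in siDCAF8/Erastin cells.

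**Figure D5:**
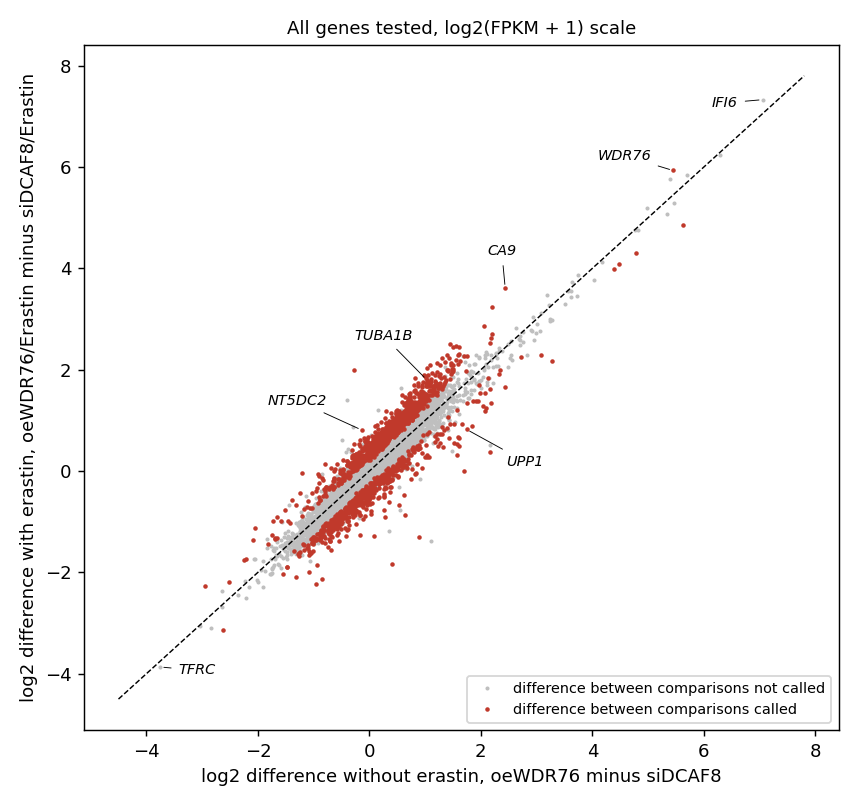
Log2(FPKM + 1) difference of each of the 11260 genes tested without erastin (x axis, oeWDR76 minus siDCAF8) and with erastin (y axis, oeWDR76/Erastin minus siDCAF8/Erastin), with the line of equality dashed. Red points are the 1583 genes whose difference itself differed between the 2 comparisons, WDR76 among them (5.93 with erastin and 5.45 without). IFI6 and TFRC mark the ends of the range and lie near the line.

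Genes under the filter were not tested. Of these 6292 genes, 891 were at 0 in all 4 libraries, 1661 (26.4%) had both oeWDR76 libraries above both siDCAF8 libraries, and 743 (11.8%) had both below. Among the 11260 genes tested, these last 2 counts were 5419 and 4322. Over all genes with values, 1901 and 1917 were at 0 in the oeWDR76 libraries, against 2435 and 2389 in the siDCAF8 libraries. The genes named next were picked from the widest gaps with oeWDR76 above. CPNE4, a copine, had 4.10 and 3.80 FPKM in oeWDR76 cells, against 0.02 and 0.02 FPKM in siDCAF8 cells, the widest such gap. The interferon-stimulated IFI44L had 2.81 and 2.41 FPKM in oeWDR76 cells, against 0 and 0 FPKM in siDCAF8 cells, and the complement component C3 had 2.42 and 2.29 FPKM in oeWDR76 cells, against 0.08 and 0.12 FPKM in siDCAF8 cells.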

How the data were processed

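Total RNA was amplified with Smart-seq v4, made into NEBNext libraries and sequenced on a BGISEQ500, per the labels' protocols. The authors deposited 1 table of FPKM values for 16 libraries, and the submitters' processing notes name StringTie and GRCh38, with no aligner or annotation release given in the sources used here. FPKM keeps no read counts, so the depth of each library is unknown and no counting interval was given. The labels' erastin protocol (10 µM, 24 h) is written for every library, and untreated libraries were taken from the genotype label.

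Of 24107 entries, 17552 had values and 6555 were empty. Genes averaging 1 FPKM or more were tested as log2(FPKM + 1), so fold changes of low genes are understated, with limma 3.58.1 in R 4.3.3 (8 group means, trended variance, 8 residual and 8.57 prior degrees of freedom, two-sided, Benjamini-Hochberg over 11260 genes). The fit was tested on simulated data. GC content and transcript length came from GENCODE transcripts, and promoters from RefSeq.

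Genes were named by rule: the targeted genes, the 15 largest rises and falls with non-overlapping groups and at least 5 FPKM in the higher group, up to 5 called members of each list by lowest p, and the 6 lowest p for the difference with erastin. Some genes that the rule selects are not reported here. Other named genes were chosen after their values were seen. The comparison, members and lists were chosen with earlier results of these data known. Alternatives covered the pseudocount, the filter, median-ratio and quantile scaling, the GC and length trend, a replicate block, the groups fitted and each library left out.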

Additional observations from a re-analysis of the deposited data

Results flagged for a closer look

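The genotype difference itself was tested for a change between the erastin-treated and the untreated pair, and 1583 genes were called, 59 of them among the genes named above. Each value here is the log2 difference with erastin minus that without, and each had an adjusted p under 0.05 in limma. Values are given with no explanation.

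Replication and mitosis genes had higher values with erastin: TK1 (0.91), CDT1 (0.39), CDC45 (0.39), MCM7 (0.25), AURKB (0.60), CENPA (0.71), PTTG1 (0.53), UBE2C (0.65), CDC20 (0.99), UBE2S (0.89), CENPF (0.40), TOP2A (0.34), H2AX (0.93) and DNMT1 (0.45). The cytoskeletal and signalling genes TUBA1B (0.77), TUBB4B (0.79), CALM3 (0.83), KRT8 (0.37), TGFB1 (0.42) and TGFBR3 (0.61) also had higher values with erastin, whereas LCP1 was lower, at -0.38. NT5DC2 was higher by 0.95 and UPP1 lower, at -0.92.

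Interferon-stimulated genes among them had lower values with erastin: MX2 (-0.76), USP18 (-0.47), MX1 (-0.40) and OAS2 (-0.41). STING1 was higher by 0.38, as was WDR76 (0.48).

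Named genes of stress, antioxidant, ferroptosis and lysosome lists with lower values under erastin were SLC7A11 (-1.28), DDIT3 (-1.04), PHGDH (-0.97), SLC3A2 (-0.71), ATF3 (-0.53), FTH1 (-0.77), SQSTM1 (-0.50), GCLM (-0.48), ALOXE3 (-0.91), CTSL (-0.30) and MAP1LC3B (-0.32). Among chaperones and metabolic genes, the changes were in MANF (0.70), PDIA6 (0.32), HSPA1A (0.52), HSPA1B (0.70), DNAJB6 (-0.32), ALDOA (0.40), GAPDH (0.24), CA9 (1.18) and COX8A (0.41).

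Of the named genes that were lower in oeWDR76, these differed less from siDCAF8 with erastin: CEMIP (0.69), FN1 (0.47), MMP2 (0.73), COL5A1 (0.38), HSPG2 (0.49), ROR1 (0.33), TENM2 (0.49), SORBS2 (0.72) and PLK2 (0.66). TOP2A, CENPF, TGFBR3 and KRT8, listed above, also differed less. ANKRD1 differed more (-0.51), as did SLC7A11, GCLM and DNAJB6, listed above.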

How the results depend on the processing

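Genes called without erastin numbered between 7739 and 9168 under every alternative other than leaving out a library and the filter of 5 FPKM, which gave 6626 of 8691 genes tested. Genes past 2-fold dropped to 581 of 11086, against 938, with the trend on GC content and length removed, numbered 1326 with a pseudocount of 0.1 and between 720 and 982 under the rest. Leaving out 1 library gave 7359 to 7544 called without erastin, 936 to 968 past 2-fold, 8077 to 8218 called with erastin and 728 to 1236 genes for the difference between both comparisons. That last count moved by more than 1.5 times without siDCAF8 replicate 1 (1034), oeWDR76 replicate 1 (728), oeWDR76/Erastin replicate 1 (936) or oeWDR76/Erastin replicate 2 (957).

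With the GC and length trend removed, TIMP1 (-0.056), RPLP2 (-0.033), RPL8 (-0.13), RPS15 (-0.13), GPX4 (-0.23) and STING1 (-0.064) turned negative, of which TIMP1, RPLP2 and STING1 were no longer called, like PSMB6 (0.11), FCER1G (0.40), FTL (0.04) and GCLM (-0.13); the cause was not tested. After quantile normalization, list medians came to 0.23 for the unfolded protein response, 0.0015 for heat shock, 0.05 for glycolysis, 0.09 for the ATF4 response, 0.12 for the respiratory chain, 0.16 for the proteasome and 0.18 for autophagy. Every called gene named kept its direction and call under the median-ratio, quantile and pseudocount alternatives. Of the genes not called, DNMT1 (-0.10) and TRIM25 (-0.032) turned negative after quantile normalization.

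The main fit did not pair libraries by replicate number. Deviations of equally numbered oeWDR76 and siDCAF8 libraries correlated at -0.10. Between other groups the value ran from -0.21 (siDCAF8 with siNS) to 0.39 (siDCAF8+siLSH with siDCAF8), and a batch shared by replicate number was not tested. With a replicate block, 8230 genes were called, 939 past 2-fold, 8742 with erastin and 1619 for the difference between both comparisons. FPKM carries no depth, so what depth limits could not be measured.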
